A study of Mus musculus with 6 samples.

Results

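Nanog lies on mouse chromosome 6 among genes that are active in pluripotent cells, and 5 neighbours of this region were followed from ESCs to EpiLCs. The members, Nanog, Dppa3, Gdf3, Slc2a3 and Apobec1, are 5 of the 24736 genes in the deposited table, and all 5 passed the filter on low counts that 14468 genes passed. They were selected on their position and on their levels in this same comparison, so their levels and fold changes are given as a description with no test. RNA was sequenced from embryonic stem cells (ESCs) at 0 h and from epiblast-like cells (EpiLCs) at 48 h, with 3 biological replicates of each, all from the WT line, the XY mouse line HM1 TetON. The ESCs were undifferentiated and were kept on feeder cells in 10% serum with 1000 U/ml LIF. The EpiLCs were cultured for 2 days in N2/B27 basal medium without serum, with 10 ng/ml bFGF and 5 µM LGK974, an inhibitor of WNT secretion. The change of medium, the loss of feeders and the time in culture coincide in this design and cannot be told apart. All libraries come from 1 cell line, so the spread between replicates covers separate cultures and not separate lines.

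Pluripotent cells before implantation are called naive, and ESCs in LIF are their counterpart in culture. A network of transcription factors around OCT4, SOX2 and NANOG holds this state, and NANOG is the member of that core that is lost early as cells leave it. FGF moves ESCs towards the formative state of the epiblast after implantation, which EpiLCs model. NANOG is a homeobox factor of this network. Dppa3, also called Stella, encodes a small protein of oocytes, early embryos and germ cells that acts on DNA methylation. GDF3 is a secreted ligand of the TGF-beta family, SLC2A3 is the glucose transporter GLUT3, and APOBEC1 is a cytidine deaminase that edits apolipoprotein B mRNA.

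On GRCm38 (mm10) the cluster covers chr6:122577792-122802363, a span of 225 kb. Apobec1 comes first, on the minus strand (chr6:122577792-122603024), and Gdf3 follows after 2378 bp on the same strand (chr6:122605403-122610087). Dppa3 starts 16336 bp further along on the plus strand (chr6:122626424-122630271). Nanog is also on the plus strand (chr6:122707489-122714633), after the widest gap of 77217 bp. Slc2a3 lies 13175 bp beyond Nanog on the minus strand (chr6:122727809-122802363), so that Nanog and Slc2a3 are transcribed towards each other. No other gene with a row in the table lies between the members. The positions are those of RefSeq and the strands those of GENCODE vM21. The annotation of the surrounding 500 kb holds 12 pseudogenes with no row in the table, and whether any of them is a copy of a member was not tested.

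The promoter of Nanog, the member with the largest fold change, is shown as the 250 bases before the start in RefSeq on GRCm38.p6. The window held for Apobec1 lies within the gene span given above and is not shown. Dppa3, Gdf3 and Slc2a3 had no entry. The capitals mark TTTGCAT, the core of the octamer bound by OCT4, and ACAATG, a SOX recognition sequence, both searched on both strands.
Nanog promoter, chr6:122707239-122707488, plus strand: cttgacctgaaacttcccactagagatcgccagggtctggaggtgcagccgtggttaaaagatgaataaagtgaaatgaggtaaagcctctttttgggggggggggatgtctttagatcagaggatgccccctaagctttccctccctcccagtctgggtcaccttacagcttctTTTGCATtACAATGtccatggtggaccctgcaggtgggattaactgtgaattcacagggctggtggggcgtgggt
In the Nanog promoter the octamer part covered bases 75 to 69 before the start and the SOX part bases 67 to 62, without overlap and with 1 base between them. Over the 32851 promoter windows of the table, 4.12% held the octamer part and 10.7% the SOX part. The pair in this order with 1 base between them was found in 2 windows (0.00609%), which are overlapping windows of different Nanog starts and hold the same site. A match describes the letters only, and binding was not measured in these libraries. Pou5f1, which encodes OCT4, and Sox2 are given with the network genes after the members.

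The 5 genes were sequenced deeply enough to be counted in every library. Totals of expected counts per library ranged from 16967741 to 35096210, and the lowest count of a member was 69, for Apobec1 in ESC replicate 2. All 5 had whole-number counts in all 6 libraries, and so show no sign of reads divided with another gene of the table. Values of single libraries are listed in the order of replicates 1, 2 and 3. Levels between genes are compared in TPM, which is scaled for transcript length. The length that RSEM used for Nanog relative to Dppa3 differed in no library by more than 2.08% from the ESC mean, and the corresponding value was at most 0.61% for Apobec1 and 0.06% for Gdf3 and Slc2a3.

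Nanog, the transcription factor, was present at 310.3, 290.3 and 372 TPM in the ESC libraries and at 7.72, 5.95 and 22.5 TPM in the EpiLC libraries. The groups did not overlap, and the lowest ESC library was 12.9 times the highest EpiLC library. The mean was 324 ± 42.4 TPM in ESCs, against 12.1 ± 9.08 TPM in EpiLCs (SD, n = 3), which is a log2 fold change of -4.81 (SE 0.54). By mean TPM Nanog stood at rank 459 of all genes in ESCs and at rank 7847 in EpiLCs. EpiLC replicate 3 was the high library of its group, and without it the log2 fold change was -5.65. Measured in bulk, fewer cells with a transcript and less of it in each cell cannot be told apart, for Nanog or for any gene here.

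Dppa3 was present at 46.2, 40.3 and 129 TPM in the ESC libraries and at 7.43, 9.91 and 25.8 TPM in the EpiLC libraries. The groups did not overlap, but replicate 3 was far above the other libraries of its group in both. The mean was 71.7 ± 49.4 TPM in ESCs, against 14.4 ± 9.97 TPM in EpiLCs (SD, n = 3), and the log2 fold change was -2.38 (SE 0.63), the largest SE of the 5 members. Leaving out replicate 3 of either group moved this value, to -1.62 without ESC replicate 3 and to -3.11 without EpiLC replicate 3. With a term for the replicate number in the fit it was -2.37 (SE 0.16).

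Gdf3, the secreted ligand, was present at 49.1, 61.5 and 62.1 TPM in the ESC libraries and at 25.7, 27.2 and 36.4 TPM in the EpiLC libraries. The groups did not overlap and the libraries of each lay close together, with a ratio of highest to lowest of 1.27 in ESCs and 1.42 in EpiLCs. The mean was 57.6 ± 7.37 TPM in ESCs, against 29.8 ± 5.80 TPM in EpiLCs (SD, n = 3), which is a log2 fold change of -1.0 (SE 0.17).

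Slc2a3, the glucose transporter, was the most abundant member in every library. It was present at 437, 409.7 and 585 TPM in the ESC libraries and at 65.5, 45.0 and 81.2 TPM in the EpiLC libraries. The groups did not overlap, and the lowest ESC library was 5.04 times the highest EpiLC library. The mean was 477 ± 94.4 TPM in ESCs, against 63.9 ± 18.2 TPM in EpiLCs (SD, n = 3), which is a log2 fold change of -2.95 (SE 0.25).

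Apobec1, the deaminase, was the least abundant member in every library, at 4.56, 3.99 and 7.34 TPM in the ESC libraries and at 2.97, 4.19 and 2.48 TPM in the EpiLC libraries. The groups overlapped, since EpiLC replicate 2 was above ESC replicate 2. The mean was 5.30 ± 1.79 TPM in ESCs, against 3.21 ± 0.88 TPM in EpiLCs (SD, n = 3), and the log2 fold change was -0.79 (SE 0.31). Apobec1 is known from gut epithelium and is also expressed by myeloid cells. Of 7 myeloid markers, 3 were listed at 0 TPM in all libraries (Adgre1, Cx3cr1 and Tyrobp), Ptprc reached at most 0.12 TPM and Csf1r at most 0.19 TPM. Of the 2 with enough counts to be tested, Itgam rose by 2.10 (log2, SE 0.42, adjusted p = 0.0072), to at most 0.88 TPM in EpiLCs, and Cd68 fell by 1.01 (log2, adjusted p = 0.0078). The part of myeloid cells in the Apobec1 level was not tested. The summed level of all 7 was between 12.4 and 16.5 TPM in ESCs and between 6.14 and 8.36 TPM in EpiLCs, nearly all of it from Cd68, a lysosomal protein.

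**Figure D1:**
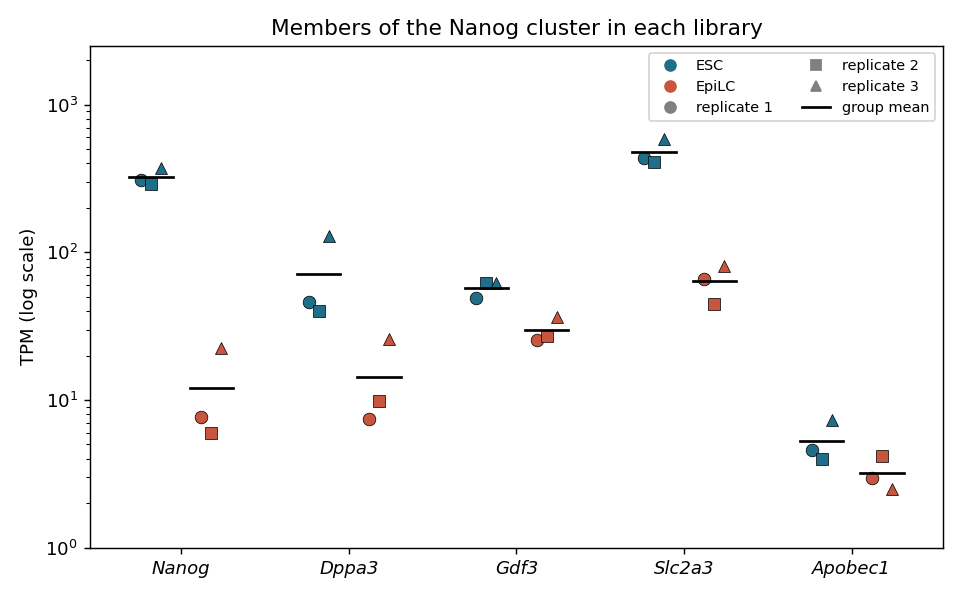
TPM of the 5 members on a log axis in each of the 6 libraries, with ESC in blue and EpiLC in red, marker shapes for the replicates and black lines for the group means. The groups are separate for Nanog, Dppa3, Gdf3 and Slc2a3 and overlap for Apobec1, and replicate 3 is the highest ESC library for all 5.

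In 4 of the 5 members every EpiLC library was therefore below every ESC library, and the same held for 25.6% of all genes tested. Since this contrast chose the members, the count stands as a description. Together the members held 847, 806 and 1155 TPM in the ESC libraries and 109, 92.2 and 168 TPM in the EpiLC libraries. The make-up of this sum differed between the groups. Nanog held between 32.2% and 36.6% of it in ESCs and between 6.45% and 13.4% in EpiLCs. Gdf3 held between 5.38% and 7.64% in ESCs and between 21.6% and 29.5% in EpiLCs. Slc2a3 held between 50.7% and 51.6% in ESCs and between 48.2% and 59.9% in EpiLCs.

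The order of the levels differed as well. In ESCs it was Slc2a3, Nanog, then Dppa3 and Gdf3, then Apobec1, and only Dppa3 and Gdf3 overlapped as neighbours in this order. In EpiLCs it was Slc2a3, Gdf3, Dppa3, Nanog and Apobec1, where Gdf3 overlapped Dppa3 by a narrow margin and Dppa3 overlapped Nanog. The ratio of Nanog to Dppa3 TPM was 6.72, 7.20 and 2.89 in the ESC libraries and 1.04, 0.60 and 0.871 in the EpiLC libraries.

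Pou5f1, which was not called in this comparison, gives a reference within each library. Nanog amounted to 25.1%, 21.5% and 26.2% of the Pou5f1 TPM in the ESC libraries, and to 0.542%, 0.378% and 1.66% in the EpiLC libraries. Slc2a3 amounted to between 30.3% and 41.3% in ESCs and to between 2.86% and 5.99% in EpiLCs. Gdf3 amounted to between 3.97% and 4.56% in ESCs and to between 1.73% and 2.68% in EpiLCs. Apobec1 amounted to 0.369%, 0.295% and 0.518% in ESCs and to 0.208%, 0.266% and 0.183% in EpiLCs. This scale was added once the values were known. On it the groups overlapped for none of the 5 members, and the share of all genes without overlap on it was not counted. For Apobec1, which overlapped in TPM, the margin was narrow (0.295% in the lowest ESC library, 0.266% in the highest EpiLC library).

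The next question was whether genes around the cluster moved with it. A gene was called higher or lower where edgeR's quasi-likelihood test gave an adjusted p of no more than 0.05 (Benjamini-Hochberg, 14468 genes). Of all genes tested, 22.8% were called lower and 22.6% higher in EpiLCs. Within 500 kb of the ends of the cluster, 23 other genes have a row in the table and 6 had enough counts to be tested, of which 3 were lower, 2 were higher and 1 was not called. The remaining 17 reached at most 1.60 TPM in any library.

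On the Apobec1 side, the nearest tested gene is Mfap5, a microfibril protein of the extracellular matrix, which fell by 2.46 on the log2 scale (SE 0.36, adjusted p = 0.00211). Its levels were 5.42, 8.58 and 4.42 TPM in the ESC libraries and 0.76, 1.29 and 1.37 TPM in the EpiLC libraries. Within ESCs it was high in replicate 2 and low in replicate 3, the order that the fibroblast markers also had.

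Beyond Mfap5 lie genes of both directions. Rimklb, which encodes an enzyme that joins glutamate to small acids, rose by 0.52 (log2, SE 0.09, adjusted p = 0.00389), from 16.4 ± 1.46 to 24.3 ± 0.19 TPM (SD, n = 3). Phc1, a subunit of Polycomb repressive complex 1, rose by 0.57 (log2, SE 0.10, adjusted p = 0.00458), from 206 ± 27.5 to 319 ± 16.1 TPM (SD, n = 3). All 3 EpiLC libraries were above all 3 ESC libraries for both genes. M6pr, the cation-dependent mannose 6-phosphate receptor, fell by 0.20 (log2, SE 0.06, adjusted p = 0.0381), and its groups overlapped. The M6pr call ended without ESC replicate 1 or 2 and without EpiLC replicate 1, 2 or 3 (adjusted p from 0.0627 to 0.162), and with upper-quartile normalization (adjusted p = 0.0624).

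On the Slc2a3 side, the nearest gene with a row is Foxj2, a forkhead transcription factor, with a log2 fold change of -0.20 (SE 0.14, adjusted p = 0.283) and levels from 4.39 to 5.44 TPM in ESCs and from 3.93 to 4.95 TPM in EpiLCs. Necap1, an adaptor of endocytosis, fell by 0.51 (log2, SE 0.08, adjusted p = 0.00268), from 51.5, 59.6 and 56.8 TPM in ESCs to 42.0, 41.1 and 39.1 TPM in EpiLCs. The remaining genes on this side with a row, C3ar1, Mir7231 and the Clec4 genes, were at 0.13 TPM or lower in every library. Called genes of both directions thus lay within 500 kb of the members.

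**Figure D2:**
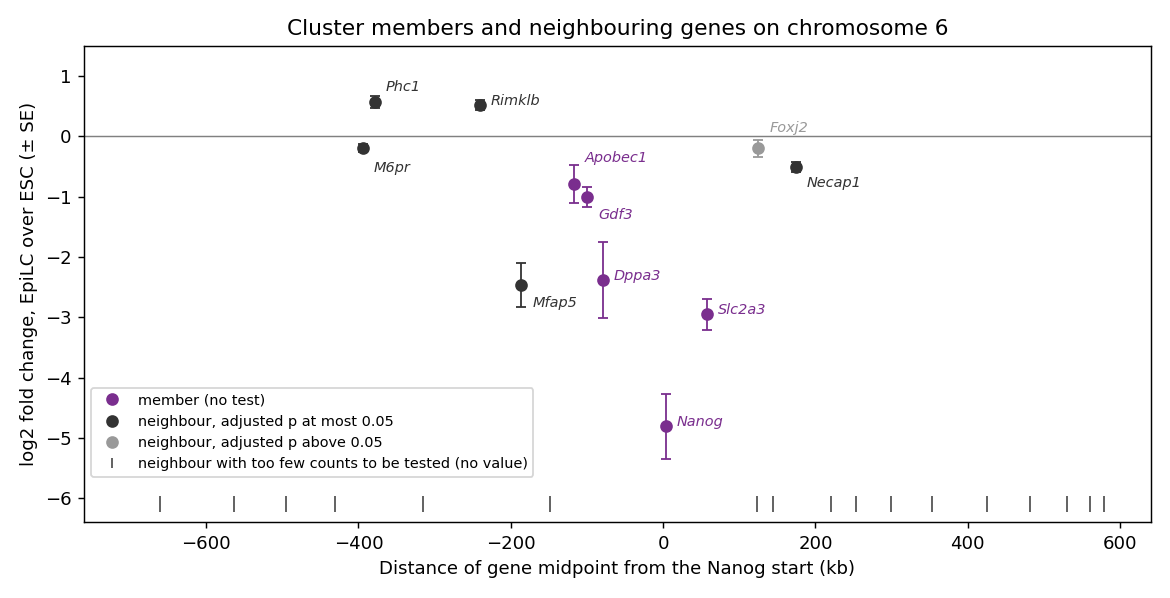
Log2 fold change of EpiLC over ESC (± SE, n = 3 per group) against the distance of each gene's midpoint from the Nanog start in kb, for the 5 members in purple and the 6 tested neighbours in black or grey. The lowest point is Nanog at -4.81 and the highest is Phc1 at 0.57, and ticks at the bottom mark 17 neighbours with too few counts to be tested, for which no fold change is drawn.

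The spread between replicates was shared by several members. In CPM, ESC replicate 3 was the highest ESC library for all 5 members and for 37.8% of all genes tested. Feeder markers were low in ESC replicate 3: within the ESCs, replicate 2 held the highest and replicate 3 the lowest level of all 15 fibroblast markers. Their summed level was 339.9, 1720 and 121 TPM in the ESC libraries and 97.7, 96.5 and 89.5 TPM in the EpiLC libraries. The most abundant were the collagen genes Col1a1, at 90.5, 489 and 28.3 TPM in the ESC libraries, and Col1a2, at 88.8, 412 and 30.6 TPM, none of the 15 being at 0 in all libraries. Of 14 fibroblast markers tested, 8 were called lower in EpiLCs and 0 higher. By the study's methods, ESCs were cleared of feeders by repeated plating on plastic before differentiation began. Whether the ESC libraries were made from cells cleared in this way is not given in the sources used here. The part of feeders in the spread of the members was not tested.

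Dppa3 was the only member at which ESC replicate 3 was at least 2-fold above both other ESC libraries, in CPM. Among all genes tested, 1.01% met this criterion. In CPM, Dppa3 was 3.03 times the mean of the other ESC libraries there, Apobec1 1.76 times, Slc2a3 1.41 times, Nanog 1.26 times and Gdf3 1.14 times. Dppa3 is also known from germ cells and from 2-cell-like cells. The summed level of 6 germ cell markers was 85.2, 68.8 and 104 TPM in the ESC libraries and 40.4, 45.8 and 38.9 TPM in the EpiLC libraries, and that of 6 markers of 2-cell-like cells was 26.2, 15.7 and 8.26 TPM and 1.09, 1.35 and 1.36 TPM. ESC replicate 3 was thus the highest ESC library for the sum of the germ cell markers and the lowest for that of the 2-cell-like markers. Of the germ cell markers, Nanos3 was lowest there, at 3.57, 4.28 and 1.99 TPM in the ESC libraries, and the part of either in the Dppa3 level was not tested.

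In CPM, EpiLC replicate 3 was the highest EpiLC library for 4 members and the lowest for Apobec1, and it was the highest for 36.3% of all genes tested. It was at least 2-fold above both other EpiLC libraries for Nanog and Dppa3, 2 of the 5 members, and for 1.09% of all genes tested. Nanog was 3.41 times the mean of the other EpiLC libraries there and Dppa3 3.03 times, against 1.49 times for Slc2a3, 1.40 times for Gdf3 and 0.703 times for Apobec1.

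Primitive streak genes stood high in the same library. Their summed level over 11 markers was 11.4, 11.0 and 71.6 TPM in the EpiLC libraries, and 557, 230.3 and 188 TPM in the ESC libraries. Of the 11 markers, 9 were highest in EpiLC replicate 3 and 8 were at least 2-fold above both other EpiLC libraries. T, the Brachyury gene and the most abundant of them in that library, was at 0.87, 0.69 and 30.7 TPM in the EpiLC libraries. Among the Nodal and activin genes, Nodal, Cfc1, Lefty1 and Lefty2 met the same criterion, 4 of 19 tested, and in the pluripotency network Prdm14 did, 1 of 16. The part of primitive streak cells in the Nanog and Dppa3 values of this library was not tested.

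**Figure D3:**
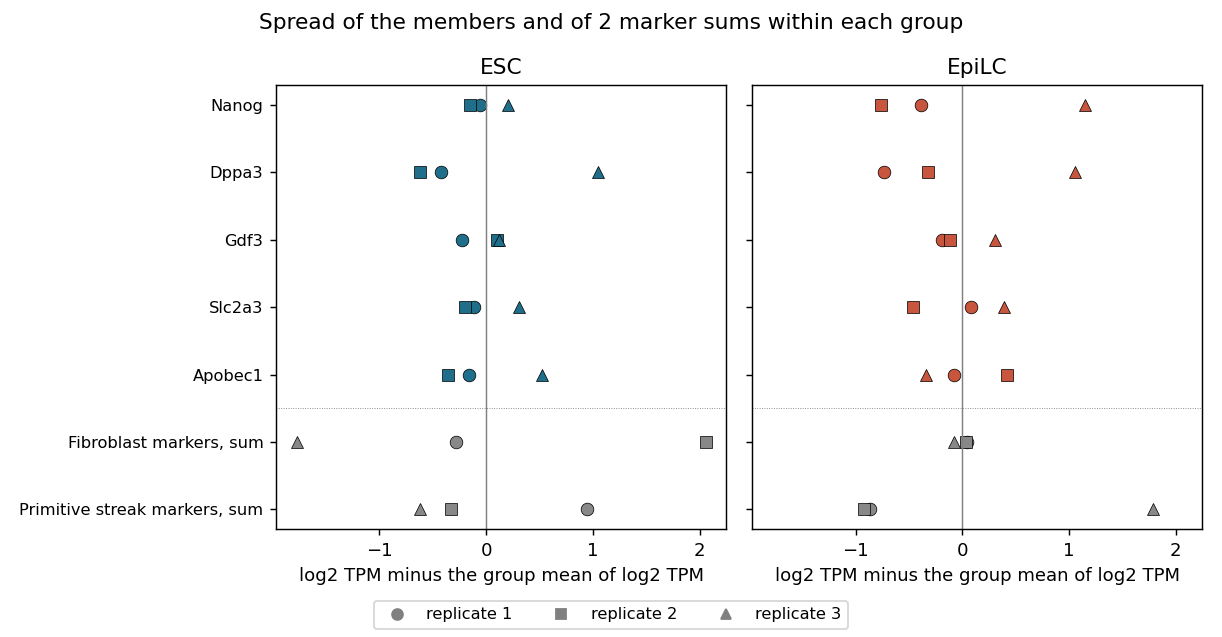
Deviation of each library's log2 TPM from its group's mean, in log2 units, for the 5 members and for the summed TPM of 15 fibroblast and 11 primitive streak markers, with ESC on the left and EpiLC on the right. ESC replicate 3 is at the right for the members and at the left for the fibroblast sum (-1.78), and EpiLC replicate 3 is at the right for Nanog (1.15), Dppa3 (1.06) and the streak sum (1.79).

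With ESC replicate 2 and EpiLC replicate 3 left out together, a choice made after these values were seen, the log2 fold changes were -5.73 for Nanog, -3.41 for Dppa3, -1.14 for Gdf3, -3.27 for Slc2a3 and -0.81 for Apobec1. ESC replicate 2 was the lowest ESC library for Nanog, Dppa3 and Slc2a3, and EpiLC replicate 3 the highest EpiLC library for the same genes. Leaving out this pair therefore had to enlarge their falls. The formative markers followed the labels in every library, and they do not show whether other cells were present. All 6 formative markers, among them Fgf5 and Pou3f1, were called higher in EpiLCs, and their summed level was between 735 and 806 TPM in EpiLCs and between 121 and 189 TPM in ESCs.

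Nanog belongs to the pluripotency network, and of 16 other network genes 13 were called lower, 1 higher and 2 were not called in EpiLCs. Over all genes tested the shares were 22.8% lower and 22.6% higher, here and for the lists that follow. The median log2 fold change of the list was -4.35, against -0.0017 over all genes tested, and that of Nanog was -4.81. Pou5f1 was at 1237, 1351 and 1418 TPM in the ESC libraries and at 1425, 1574 and 1355 TPM in the EpiLC libraries, with a log2 fold change of 0.07 (SE 0.08, adjusted p = 0.496). Sox2 was at 261, 281 and 385 TPM in ESCs and at 151, 135 and 146 TPM in EpiLCs, and fell by 1.15 (log2, SE 0.15, adjusted p = 0.00146). The groups overlapped for Pou5f1 and not for Sox2.

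In the edgeR fit the largest falls in the network were those of Prdm14, a repressor of FGF signalling and DNA methylation genes, of Tbx3, a T-box factor, and of Klf4, a Krüppel-like factor. The log2 fold change was -6.71 for Prdm14 (SE 0.48, adjusted p = 0.000156), -6.59 for Tbx3 (SE 0.14, adjusted p = 6.45e-06) and -6.53 for Klf4 (SE 0.24, adjusted p = 1.93e-05). In EpiLCs 12.1 TPM of Nanog were left, against 0.0967 ± 0.0808 for Prdm14, 0.573 ± 0.0379 for Tbx3 and 2.37 ± 0.691 TPM for Klf4 (SD, n = 3). The EpiLC counts of Prdm14 were 2, 2 and 7. With limma on log2(TPM + 1) its log2 fold change was -3.26, against -4.85 for Nanog, so that the order of the pair turned. With limma on log2(TPM + 0.1) it was -5.68, against -4.98 for Nanog, so that the order was kept. In these fits Prdm14 fell by less than Klf4 (-5.99 and -6.44) and Tbx3 (-5.09 and -6.30). Without EpiLC replicate 3 the log2 fold change of Prdm14 was -7.60. The 1 gene called higher was Tcf7l1, a transcriptional repressor that acts at WNT target sites and on Nanog, which rose by 0.65 (log2, SE 0.09, adjusted p = 0.00137), from 56.0, 68.9 and 64.3 TPM in ESCs to 101, 103 and 104 TPM in EpiLCs.

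Gdf3 is a ligand of the Nodal and activin pathway, which signals through activin receptors and SMAD2 and SMAD3 with the co-receptor CRIPTO, the product of Tdgf1. Of 19 genes tested in this list of 20, 9 were called lower, 3 higher and 7 were not called, and the median log2 fold change was -0.73, against -1.0 for Gdf3. Markers of other cell types moved with this list: of 11 primitive streak markers tested 7 were called lower and 0 higher (median log2 fold change -3.35), and of 7 primitive endoderm markers 5 were called lower and 0 higher. Their part in the changes of the pathway genes was not tested. The ligand Nodal was at 77.2, 62.6 and 53.9 TPM in the ESC libraries and at 4.59, 5.33 and 10.7 TPM in the EpiLC libraries, and fell by 3.28 (log2, SE 0.34, adjusted p = 0.000535). By mean TPM Gdf3 lay close to Nodal in ESCs (57.6 ± 7.37 against 64.6 ± 11.8) and above it in EpiLCs (29.8 ± 5.80 against 6.87 ± 3.32, SD, n = 3), where the ranges of the libraries did not overlap.

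Both co-receptors fell in EpiLCs. Tdgf1 was at 653, 416 and 607 TPM in ESCs and at 10.0, 18.3 and 24.8 TPM in EpiLCs, and fell by 5.03 (log2, SE 0.37, adjusted p = 0.000173). Its relative Cfc1, or Cryptic, fell by 5.61 (SE 0.59, adjusted p = 0.000555), from 9.82 ± 0.494 to 0.203 ± 0.248 TPM (SD, n = 3). Its EpiLC counts were 1, 1 and 7, and the log2 fold change was -7.13 without EpiLC replicate 3 and -3.19 with limma on log2(TPM + 1). Of the feedback inhibitors, Lefty2 fell by 5.51 (log2, SE 0.53, adjusted p = 0.000425), with a value of -6.39 without EpiLC replicate 3. Lefty1 fell by 3.36 (log2, SE 0.59, adjusted p = 0.00425), from 39.5, 59.4 and 66.5 TPM in ESCs to 3.96, 1.95 and 10.8 TPM in EpiLCs, with a value of -4.27 without EpiLC replicate 3. The expected counts of Lefty1 and Lefty2 were not whole in any library (48.73 and 33.27 in EpiLC replicate 2), a sign of reads divided with another gene. Inhba, an activin subunit, fell by 5.22 (log2, SE 1.29, adjusted p = 0.0158) but was at 11.1, 64.9 and 3.42 TPM in the ESC libraries, in the order of the fibroblast markers. Its log2 fold change was -3.37 without ESC replicate 2 and -6.47 without EpiLC replicate 2, and -3.23 with limma on log2(TPM + 1), and its call ended without EpiLC replicate 1 (adjusted p = 0.0657) or EpiLC replicate 3 (adjusted p = 0.0564).

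The receptors and the SMADs that they phosphorylate were not called. For Acvr1b, Acvr2a, Acvr2b, Smad2 and Smad3 the log2 fold changes ranged from -0.17 to 0.38. The 3 genes called higher were Foxh1, the DNA-binding partner of SMAD2, by 0.58 (log2, SE 0.11, adjusted p = 0.00571), Smad4 by 0.35 (SE 0.07, adjusted p = 0.00795), and the ligand Gdf1, the closest relative of Gdf3 in the list, by 1.59 (SE 0.50, adjusted p = 0.0364). Gdf1 was at 1.61, 2.79 and 4.54 TPM in ESCs and at 7.49, 12.9 and 11.8 TPM in EpiLCs. Its expected counts were 22.71, 29.99 and 115 in ESCs and 167.55, 300.18 and 249.89 in EpiLCs. Most are not whole, a sign of reads divided with another gene. Its call ended without ESC replicate 1 or 2 or EpiLC replicate 2 or 3 (adjusted p from 0.0681 to 0.104), and its log2 fold change was 2.35 without ESC replicate 3.

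DPPA3 is known to bind UHRF1, the partner of the maintenance DNA methyltransferase DNMT1. Of 14 DNA methylation and other DPPA genes, 7 were called lower, 5 higher and 2 were not called, and the median log2 fold change was -0.21, against -2.38 for Dppa3. Uhrf1 itself was at 263, 254 and 269 TPM in ESCs and 221, 221 and 252 TPM in EpiLCs, and fell by 0.23 (log2, SE 0.08, adjusted p = 0.0423). This call ended without ESC replicate 1 or 3 or EpiLC replicate 1 or 2 (adjusted p from 0.0910 to 0.162) and with upper-quartile normalization (adjusted p = 0.0883).

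The de novo methyltransferase Dnmt3b rose by 2.54 (log2, SE 0.13, adjusted p = 5.89e-05), from 289.6, 215 and 289.1 TPM in ESCs to 1535, 1589 and 1660 TPM in EpiLCs. Tet3, a methylcytosine dioxygenase, rose by 1.22 (SE 0.11, adjusted p = 0.000294) and Dnmt3a by 1.19 (SE 0.16, adjusted p = 0.00149). The largest falls were those of the dioxygenase Tet2 (log2 fold change -4.19, SE 0.27, adjusted p = 0.000113), of Dppa5a, an RNA-binding protein of ESCs (-2.92, SE 0.14, adjusted p = 5.24e-05), and of Dnmt3l, a cofactor of the de novo enzymes (-2.26, SE 0.22, adjusted p = 0.000445). Within the DPPA genes Dppa3 and Dppa5a were thus lower in EpiLCs, while Dppa4 rose by 0.44 (log2, SE 0.10, adjusted p = 0.0135) and Dppa2, at 0.17 (SE 0.14, adjusted p = 0.337), was not called.

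Slc2a3 is 1 of the facilitative glucose transporters, which hand glucose to the hexokinases. Of 9 genes tested in a list of 14 other transporters and hexokinases, 2 were called lower, 2 higher and 5 were not called, with a median log2 fold change of -0.50 against -2.95 for Slc2a3. Both counts are near the shares over all genes tested, 22.8% lower and 22.6% higher. Slc2a1, which encodes GLUT1, was at 227, 183 and 253 TPM in the ESC libraries and at 767, 594 and 673 TPM in the EpiLC libraries. It rose by 1.57 (log2, SE 0.15, adjusted p = 0.000399), and its groups did not overlap. In ESCs Slc2a3 was above Slc2a1 in every library, and in EpiLCs Slc2a1 was above Slc2a3 in every library.

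Of the other transporters Slc2a8 was the most abundant, at 9.75, 7.66 and 12.1 TPM in ESCs and at 7.53, 8.19 and 6.13 TPM in EpiLCs. Slc2a6 rose by 1.54 (log2, SE 0.31, adjusted p = 0.0068) from 0.527 ± 0.150 to 1.61 ± 0.219 TPM (SD, n = 3). The hexokinases Hk1 and Hk2 were called lower. Hk1 fell by 1.21 (log2, SE 0.20, adjusted p = 0.00316), from 27.9 ± 7.63 to 12.6 ± 1.10 TPM, and Hk2 fell by 0.62 (SE 0.17, adjusted p = 0.022), from 133 ± 32.2 to 90.1 ± 4.73 TPM (SD, n = 3). Without any 1 of the 3 EpiLC libraries the Hk2 call ended (adjusted p from 0.0615 to 0.0772), and 1 of the 2 lower calls remained. The lower count was 5 without ESC replicate 2 and also without ESC replicate 3.

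APOBEC1 edits RNA together with an RNA-binding partner, for which A1CF and RBM47 are known. A1cf was listed at 0 TPM in all 6 libraries. Rbm47 was at 7.96, 9.49 and 9.76 TPM in ESCs and 7.24, 7.44 and 6.93 TPM in EpiLCs, and fell by 0.38 (log2, SE 0.12, adjusted p = 0.0379). This call ended without ESC replicate 2 or 3 or without any 1 of the EpiLC libraries (adjusted p from 0.0581 to 0.117). Of 6 deaminase and cofactor genes tested in a list of 10, 3 were called lower, 1 higher and 2 were not called, with a median log2 fold change of -0.18 against -0.79 for Apobec1. The shares over all genes tested were 22.8% lower and 22.6% higher, and a list of 6 is too short to set against them.

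Apobec2, of unsettled substrate, fell by 3.35 (log2, SE 0.47, adjusted p = 0.00169), from 3.96, 4.85 and 4.25 TPM in ESCs to 0.78, 0.32 and 0.18 TPM in EpiLCs, with a log2 fold change of -4.11 without EpiLC replicate 1 and -1.93 with limma on log2(TPM + 1). Apobec3, a restriction factor of retroviruses, fell by 1.09 (SE 0.11, adjusted p = 0.000454), from 98.3 ± 11.9 to 48.0 ± 2.12 TPM (SD, n = 3). The gene called higher was Adarb1, an adenosine deaminase, by 0.62 (log2, SE 0.17, adjusted p = 0.0231), and this call ended without ESC replicate 1 and without any 1 of the EpiLC libraries (adjusted p from 0.0508 to 0.0855).

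**Figure D4:**
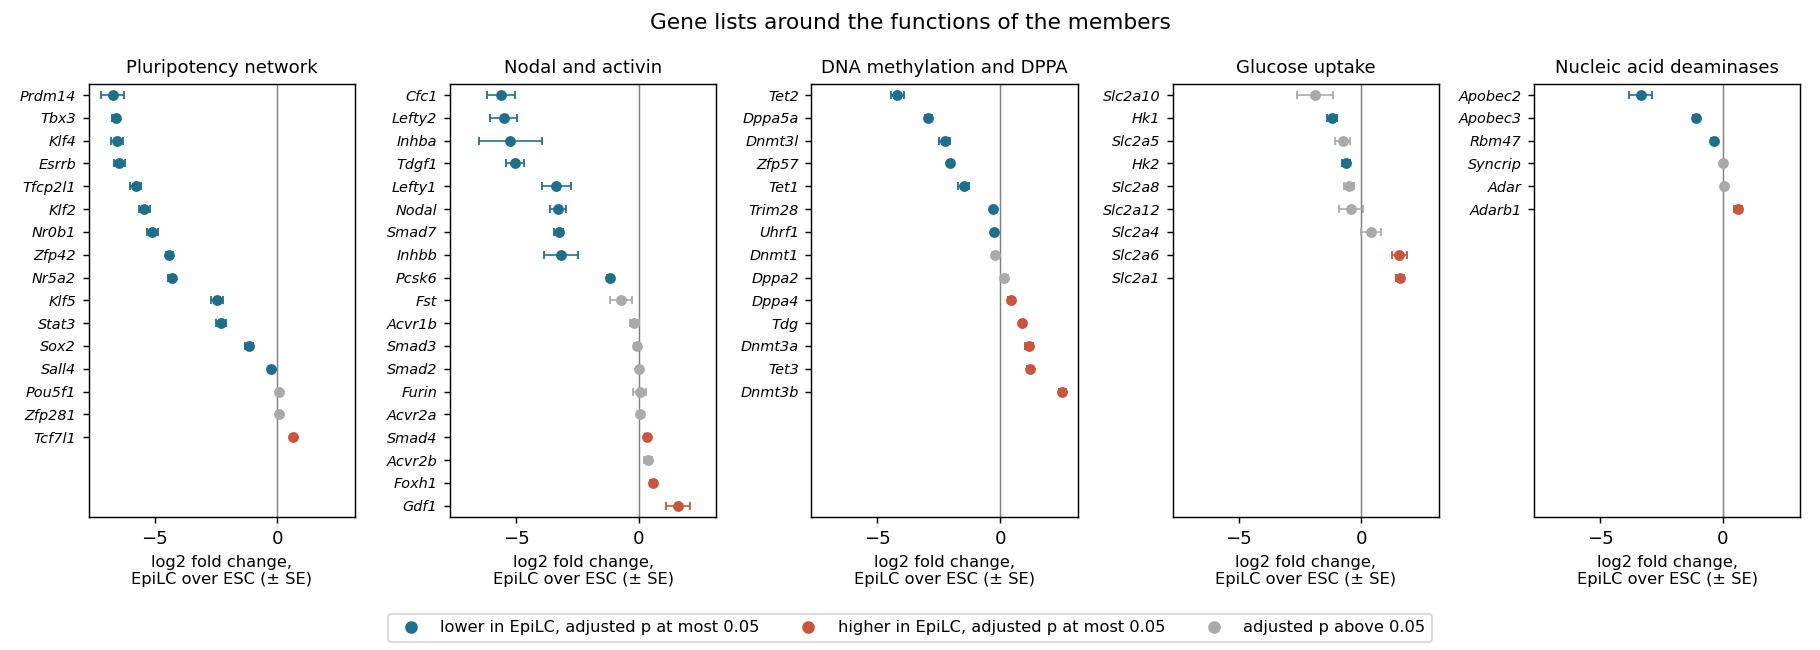
Log2 fold change of EpiLC over ESC (± SE, n = 3 per group) for the tested genes of the 5 lists, with genes called lower in blue, higher in red and not called in grey. The panels hold 16, 19, 14, 9 and 6 genes from left to right, and the range runs from -6.71 for Prdm14 to 2.54 for Dnmt3b.

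The genes most alike to each member across the 6 libraries were named by the smallest root mean square difference of centred log2 CPM, among tested genes that averaged 10 CPM or more. The libraries of the contrast are the same that chose the members, so the likeness is a description. For Nanog they were Ntn1, which encodes netrin-1 (difference 0.210), Ephx2, a soluble epoxide hydrolase (0.216), and 1700097N02Rik (0.304). Ntn1 was at 51.9, 58.2 and 62.2 TPM in ESCs and at 1.92, 1.03 and 4.61 TPM in EpiLCs, and thus also stood high in EpiLC replicate 3.

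For Slc2a3 they were Fbxo15, an F-box gene of ESCs (0.0960), Pecam1, an adhesion molecule (0.176), and Tdh, the threonine dehydrogenase that mouse ESCs depend on (0.176). Tdh was at 476, 571 and 630 TPM in ESCs and at 89.5, 66.6 and 107 TPM in EpiLCs, a level near that of Slc2a3. For Gdf3 they were the DNA sensor gene Aim2 (0.0880), Zfp979 (0.119) and Mageb16 (0.122).

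Dppa3 had no close match. Its nearest were the meiotic gene Hsf2bp (0.488), Pmel (0.541) and the long noncoding RNA Lncenc1 (0.547). Hsf2bp was at 30.5, 28.4 and 44.4 TPM in ESCs and at 6.58, 6.32 and 9.62 TPM in EpiLCs, and so exceeded the other replicates by less in replicate 3 than Dppa3 did. For Apobec1 they were Fut9, the enzyme of the SSEA-1 antigen (0.135), Mdm4, an inhibitor of p53 (0.150), and Prkaa2, a catalytic subunit of AMPK (0.160). Among the members themselves the most alike were Gdf3 and Apobec1 (0.445), next to each other on the chromosome. They also had the smallest log2 fold changes of the members (-1.0 and -0.79). Next came Dppa3 and Slc2a3 (0.644), which have Nanog between them. Nanog was nearest to Slc2a3 (1.11), its neighbour on the other side, and farthest from Apobec1 (2.30). Slc2a3 was nearer to Dppa3 and to Gdf3 (1.01) than to Nanog. No member was among the 3 genes most alike to another.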

How the data were processed

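Libraries of polyA RNA from ESCs (0 h) and EpiLCs (48 h by the labels and the study's results, whereas its culture methods give 72 h) were analysed, 3 replicates each. Single-end, strand-specific 76-nt reads were trimmed by the authors (cutadapt 1.16), aligned (STAR 2.5.2a) and counted against mm10 RefSeq genes (RSEM 1.3.0). The deposited values were raw expected counts and TPM, which the authors' tools scaled for length and library. Between 4.27% and 4.65% of the expected counts per library were not whole. The submitters' processing notes also name DESeq2 1.16.1.

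Rounded counts were fitted in edgeR 4.0.16 (R 4.3.3) and compared by its quasi-likelihood test after filterByExpr and TMM (factors 0.979 to 1.02), with group as the only term and Benjamini-Hochberg adjustment over 14468 genes. At these depths 3 counts correspond to 0.0855 to 0.177 CPM, which covers counting error only. Alternatives were DESeq2 1.42.0, upper-quartile normalization, other filters, the replicate number as a block, each replicate left out, limma 3.58.1 on log2(TPM + 1) and log2(TPM + 0.1), and a window of 1 Mb. The ratio to Pou5f1 and the fit without ESC replicate 2 and EpiLC replicate 3 were added once the values were known. The members and all gene lists were chosen with earlier results of these data known.

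Named are the members, called neighbour genes and the nearest tested gene on each side, the up to 3 largest falls and rises of each list, Pou5f1, Sox2, Nodal, Tdgf1, Lefty1, Uhrf1, Dnmt3b, Slc2a1 and Rbm47, the 3 genes most alike to each member and the most abundant markers of a list that moved with a member. A gene that the rule also named is not reported here. Other genes are named as the members of a small count, after their values were seen. Marker lists of primitive endoderm (5 of 7 tested lower in EpiLCs), 2-cell-like cells (4 of 4 tested lower) and germ cells (4 of 6 tested lower, 1 higher) were also measured.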

Additional observations from a re-analysis of the deposited data

How the results depend on the processing

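All 5 members kept the direction of their log2 fold change under every alternative run. Leaving out each replicate gave -5.65 to -4.47 for Nanog, -3.11 to -1.62 for Dppa3, -1.18 to -0.90 for Gdf3, -3.16 to -2.74 for Slc2a3 and -1.01 to -0.45 for Apobec1. Nanog (-5.73) and Dppa3 (-3.41) moved by more than the spread between replicates (1 SD of log2 CPM, averaged over both groups as variances) with ESC replicate 2 and EpiLC replicate 3 left out together, and Nanog also without EpiLC replicate 3 (-5.65). For both genes these are the lowest ESC and the highest EpiLC library, so the falls had to grow. The ratio to Pou5f1 gave -4.82, -2.37, -1.05, -2.99 and -0.85 for Nanog, Dppa3, Gdf3, Slc2a3 and Apobec1.

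Of the counts of called genes, those of the glucose list moved most. Its count of lower genes was 4 with DESeq2 and with no filter and 1 to 5 with each replicate left out, against 2. Its count of higher genes was 1 with at least 10 counts in every library, against 2, as fewer genes were tested. The count of higher deaminase genes was 0 to 1 with each replicate left out. The count of lower neighbour genes was 2 under most alternatives and 4 in a window of 1 Mb. Of the 36 genes outside the cluster on which the alternatives were run, fewer than the text names, 8 had a call that ended or a direction that turned under an alternative. The cause was not tested. The only turn among these 36 was that of Pou5f1, which ranged from -0.0064 (without ESC replicate 1) to 0.13 with each replicate left out.

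Libraries of the same replicate number deviated together with r = 0.00668, 0.186 and 0.17 across genes for numbers 1, 2 and 3. The r between libraries of different numbers was not computed, so these values do not decide whether the numbers pair the samples. The edgeR fit with group as the only term took the samples as unpaired. With a term for the replicate block, the log2 fold changes were -5.04 for Nanog, -2.37 for Dppa3, -1.01 for Gdf3, -2.98 for Slc2a3 and -0.77 for Apobec1. In that fit 3106 genes were lower and 2979 higher, against 3304 and 3267, and the calls of M6pr (adjusted p = 0.0766) and Rbm47 (adjusted p = 0.0647) ended. With limma on log2(TPM + 1), 2848 genes were lower and 3843 higher. On that scale, which understates the change of low genes, the log2 fold change was -1.71 for Mfap5 (against -2.46), 0.78 for Slc2a6 (1.54), -5.09 for Tbx3 (-6.59) and -3.26 for Tet2 (-4.19). The SE was largest for Dppa3 (0.63) without the block and for Nanog (0.35) and Apobec1 (0.35) with it, where that of Dppa3 was 0.16.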
